A study of Homo sapiens with 9 samples.

Results

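The genes described here are 49 genes of the short arm of human chromosome 8 (8p), from FBXO25 near the telomere to WRN. Of these, 48 are among the 19775 genes that had a probe set annotated to them alone. They were measured in 3 groups of cultured human colorectal carcinoma cells with 3 arrays each. The labels describe SCP51 as a high metastatic and SCP58 as a low metastatic variant, and each descended from a single cell of the parent, SW480/EGFP, which is the SW480 line with EGFP. Metastasis was scored after orthotopic implantation in mice, while the RNA came from cells in culture, and each metastatic class is represented by 1 clonal line. Replicates are called biological in the labels with no account of how the cultures were kept apart, so p-values measure only array-to-array spread, which may be technical.

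The members were chosen by position on 8p with earlier results of these same arrays in view, and the rule that chose them uses all 3 differences between the groups. The differences and the counts of called members below are therefore a description. MCPH1, a gene of chromosome condensation, had no probe set annotated to it alone in the table used here and was not analysed. The other 48 members had 144 probe sets, of which 108 passed the filter on dim signal (above the array median on at least 3 arrays), and all 48 genes passed it through at least 1 of them. On the probe set used for the gene, 47 of the 48 lay above the array median on all 9 arrays, so that none of these passed only through 1 group. The exception was DLC1. The 48 are a selection, since 78 further genes between FBXO25 and WRN were measured.

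Loss of 8p is a common chromosome change in colorectal and other epithelial cancers, and the arm has long been searched for tumour suppressor genes. Candidates among the members include DLC1, as well as MTUS1 and LZTS1, which act on microtubules and the cell cycle, and TUSC3, a subunit of the enzyme that attaches N-linked sugars. When a chromosome stretch is lost or gained, the RNA levels of many of its genes tend to move in the same direction. The arm does not hold genes of 1 pathway, and its members range from DNA repair to lysosomal digestion.

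The cells had the markers of their labelled type, with EPCAM, KRT8, KRT18, KRT19 and CDH1 among the 8 of 9 colon epithelial markers above the array median on all arrays. LGALS4 was above it on none. Of the fibroblast, leukocyte and endothelial lists, COL1A1, CD3E and VWF were above it on all arrays, while the defining markers COL3A1, LUM, PTPRC, CD14 and CDH5 were above it on none. Array medians lay between a signal of 41.1 and 44.3. SCP51 replicate 1 stood apart, with correlations of 0.891 to 0.911 to the other arrays across genes, against 0.945 to 0.979 among those 8. Within SCP51 the SD of a member had a median of 0.18 on the log2 scale and of 0.10 once that array was left out. It was 0.18 within SCP58 and 0.11 within the parent. Values without it are given beside the results it moves most.

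As a set, the 8p members stood near the middle of all genes in each comparison. Each difference below is a log2 difference of group means minus the median of all genes, which was -0.11 for SCP51 minus SCP58, -0.10 for SCP51 minus the parent and near 0 for SCP58 minus the parent. For SCP51 minus SCP58 the median of the 48 members was 0.03, with quartiles of -0.17 and 0.25, against quartiles of -0.21 and 0.19 for all 13598 genes. Of the members, 28 lay above 0 and 20 below. For SCP51 minus the parent the median was 0.05, with 29 above and 19 below, and for SCP58 minus the parent it was 0.01, with 24 on each side. By position, the 13 distal members had a median of 0.19 for SCP51 minus SCP58, the 12 middle members 0.04 and the 23 proximal members 0.00. In that comparison 10 of the 13 distal, 6 of the 12 middle and 12 of the 23 proximal members lay above 0. Without SCP51 replicate 1 the medians of all members were 0.10 for SCP51 minus SCP58 and 0.09 for SCP51 minus the parent.

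Members moved in both directions along the arm, and neighbouring members did not share a sign more often than not. In chromosome order, 22 of the 47 neighbouring pairs of members had the same sign for SCP51 minus SCP58, 20 for SCP51 minus the parent and 22 for SCP58 minus the parent. The longest run of members above 0 was 5 genes for SCP51 minus SCP58, and the longest run below 0 was 4. With non-member genes counted too, every measured gene from MYOM2 to TNKS in the distal part lay above 0 in that comparison, from 0.02 to 1.16. That stretch was picked after the values were seen and was not tested. Some of the large differences lay near opposite ones, and others did not. CLN8 at 0.78 and AGPAT5 at 1.16 lay on either side of KBTBD11 at -0.90, and in the middle of the arm VPS37A at 0.71 lay close to PCM1 at -0.57. ARHGEF10, between CLN8 and KBTBD11, stood at 0.42. The nearest measured genes on both sides of AGPAT5 were above 0, MCPH1-AS1 at 0.11 and DEFA6 at 0.05. CLU at 0.82 lay between EPHX2 at 0.84 and SCARA3 at -0.33.

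**Figure D1:**
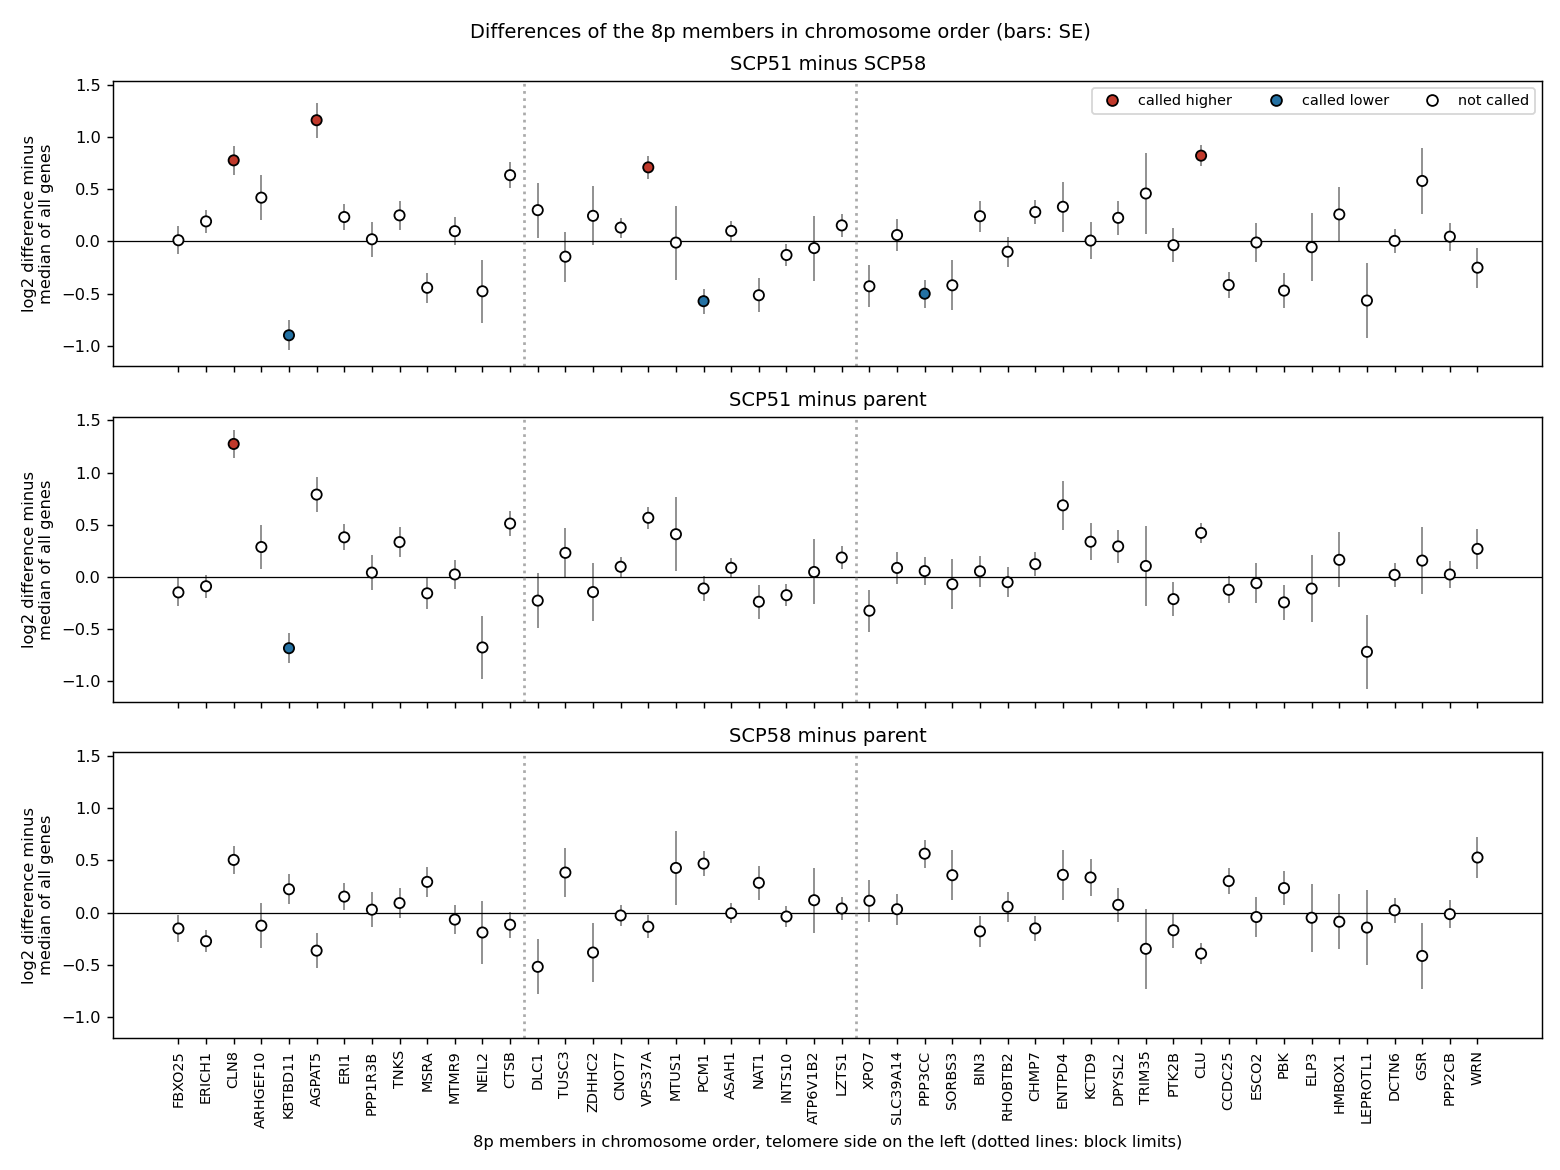
Log2 difference minus the median of all genes (y axis) for each of the 48 measured members in chromosome order (x axis), in 1 panel for each comparison. Points are genes, bars are SE from the fit, red and blue points were called higher and lower. Members above and below 0 are mixed along the arm, and values range from AGPAT5 at 1.16 to KBTBD11 at -0.90 for SCP51 minus SCP58.

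Between SCP51 and SCP58, 4 members were called higher in SCP51 and 3 lower by limma at an adjusted p under 0.05, that is 7 of 48, or 14.6%, where 4.08% of all genes were called. By direction, 1.48% of all genes were called higher and 2.6% lower. Since the rule used this contrast, nothing is read from that share. The count was 10 without SCP51 replicate 1, 5 in each direction, against 8.85% of all genes. It was 3 without SCP51 replicate 2 (1.36% of all genes), 3 without SCP58 replicate 3 (1.27%), 3 without parent replicate 3 (1.88%) and 2 without SCP58 replicate 2 (1.02%). The arrays of the lines did not overlap in 15 members (31.2%), 5 higher and 10 lower in SCP51, against 25.1% of all genes (7.91% higher and 17.2% lower). At an unadjusted p under 0.05 there were 13 members, beside 21.3% of all genes, and 11 differed by over 0.5 from the median of all genes, beside 17.3%.

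AGPAT5, an acyltransferase that makes phosphatidic acid, had the largest difference among the members. Its signals were 2554, 3795 and 3100 in SCP51, 1219, 1621 and 1694 in SCP58, and 2073, 1810 and 1903 in the parent. Every SCP51 array lay above every other array, and every SCP58 array below every parent array. The difference was 1.16 ± 0.17 (SE, n = 3 per group) for SCP51 minus SCP58, 0.79 ± 0.17 for SCP51 minus the parent and -0.36 ± 0.17 for SCP58 minus the parent. Its other probe set gave 2.06 for SCP51 minus SCP58 and 1.06 for SCP51 minus the parent. AGPAT5 was called higher in SCP51 than in SCP58, a call lost without SCP58 replicate 2. It was not called against the parent, although it was without SCP51 replicate 1, where the difference was 0.88.

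CLU, which encodes the secreted chaperone clusterin, had signals of 1873, 1799 and 1805 in SCP51, 1118, 1222 and 1005 in SCP58, and 1458, 1383 and 1539 in the parent. The 3 groups did not overlap, with the parent in between. The difference was 0.82 ± 0.10 for SCP51 minus SCP58, 0.42 ± 0.10 for SCP51 minus the parent and -0.39 ± 0.10 for SCP58 minus the parent, and the first of these was called. All 4 of its passing probe sets lay above 0 for SCP51 minus SCP58, from 0.04 to 0.85, and 3 of the 4 did for SCP51 minus the parent.

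VPS37A, a subunit of the ESCRT-I complex that sorts membrane proteins towards the lysosome, was called higher in SCP51 than in SCP58. Its signals were 353, 412 and 372 in SCP51, 255, 240 and 252 in SCP58, and 272, 266 and 281 in the parent. The 3 groups did not overlap, with SCP51 highest and SCP58 lowest. The difference was 0.71 ± 0.11 for SCP51 minus SCP58, and its other probe set gave 0.68. Leaving out any of SCP51 replicate 2, SCP58 replicate 2, SCP58 replicate 3 and parent replicate 3 ended this call.

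CLN8, a membrane protein that carries lysosomal enzymes out of the endoplasmic reticulum, had signals of 194, 238 and 209 in SCP51, 140, 147 and 117 in SCP58, and 87.3, 105 and 90.8 in the parent. The 3 groups did not overlap on this probe set. It was called higher in SCP51 than in SCP58, at 0.78 ± 0.14, and higher than in the parent, at 1.28 ± 0.14. Its 5 passing probe sets did not share a direction, with 3 above 0 and 2 below for SCP51 minus SCP58, from -0.53 to 0.89. With the mean of its probe sets CLN8 stood at 0.27 for SCP51 minus SCP58 and at 0.31 for SCP51 minus the parent, neither of them called. When SCP51 replicate 1 was left out, another probe set was the brightest and gave 0.22 in both comparisons, while the same probe set gave 0.79 and 1.29. Parent replicate 2 was the only array whose removal kept the call against SCP58.

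KBTBD11, a BTB and kelch protein of the kind that brings substrates to cullin ubiquitin ligases, was lower in SCP51 than in both other groups. Its signals were 60.7, 56.5 and 52.8 in SCP51, 101, 113 and 128 in SCP58, and 84.3, 113 and 96.4 in the parent. SCP58 and the parent overlapped, and SCP51 lay below both. The difference was -0.90 ± 0.14 for SCP51 minus SCP58 and -0.68 ± 0.14 for SCP51 minus the parent, both called, and 0.22 ± 0.14 for SCP58 minus the parent. It had 1 probe set. The call against the parent ended when SCP51 replicate 2, SCP51 replicate 3, SCP58 replicate 2, parent replicate 2 or parent replicate 3 was removed.

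PCM1, a scaffold of the granules around the centrosome, had signals of 450, 514 and 467 in SCP51, 722, 718 and 854 in SCP58, and 587, 526 and 541 in the parent. The 3 groups did not overlap, with SCP58 highest and SCP51 lowest. The difference was -0.57 ± 0.12 for SCP51 minus SCP58, which was called, and 0.47 ± 0.12 for SCP58 minus the parent, which was not. All 5 passing probe sets lay below 0 for SCP51 minus SCP58, from -0.76 to -0.24. The same 4 removals that ended the VPS37A call ended this one.

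PPP3CC, a catalytic subunit of the calcium-dependent phosphatase calcineurin, was also lower in SCP51 than in SCP58 on the probe set used. Its signals were 90.8, 125 and 116 in SCP51, 159, 179 and 164 in SCP58, and 112, 119 and 108 in the parent. SCP51 and the parent overlapped, and SCP58 lay above both. The difference was -0.50 ± 0.13 for SCP51 minus SCP58 and 0.57 ± 0.13 for SCP58 minus the parent, of which the first was called. Of its 4 passing probe sets 3 lay below 0 for SCP51 minus SCP58, and their mean stood at -0.19 without a call. The call was lost when any array other than SCP51 replicate 1 was left out.

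**Figure D2:**
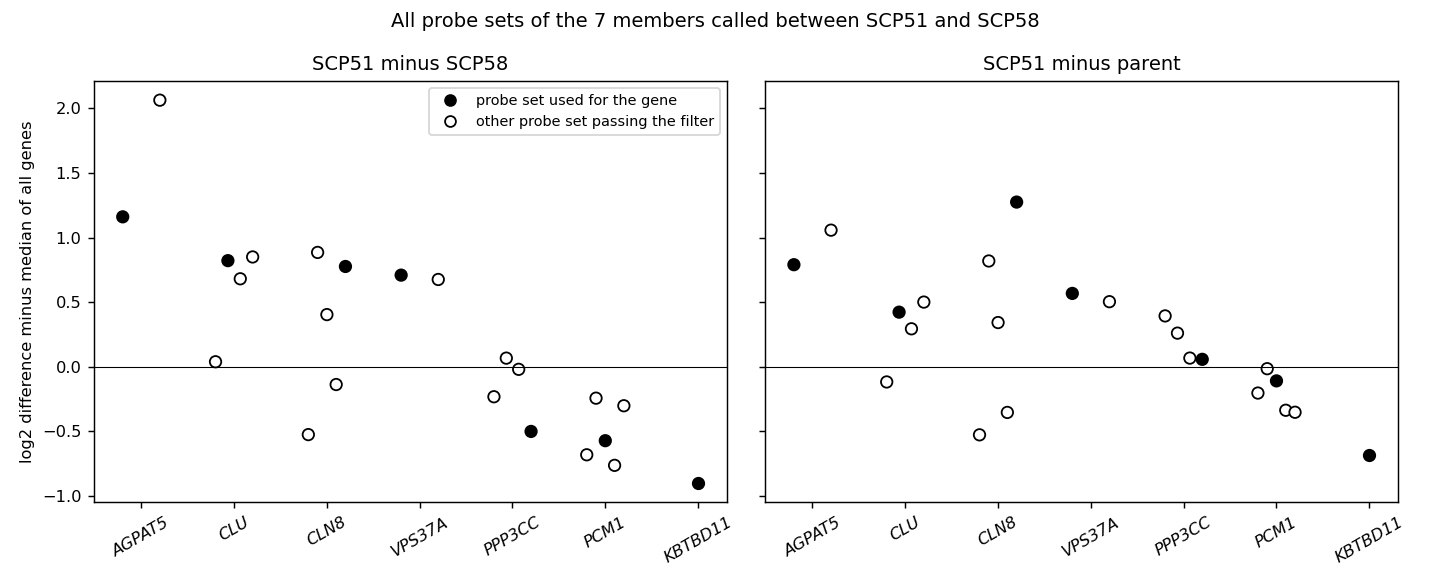
Log2 difference minus the median of all genes (y axis) on every passing probe set of the 7 members called between SCP51 and SCP58 (x axis), for SCP51 minus SCP58 and SCP51 minus the parent. Filled points are the probe sets used for the gene. AGPAT5, CLU, VPS37A and PCM1 had all their probe sets on 1 side of 0 for SCP51 minus SCP58, while CLN8 and PPP3CC did not. Of the 31 members with several passing probe sets, 17 had them all on 1 side of 0 in that comparison and 14 did not.

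**Figure D3:**
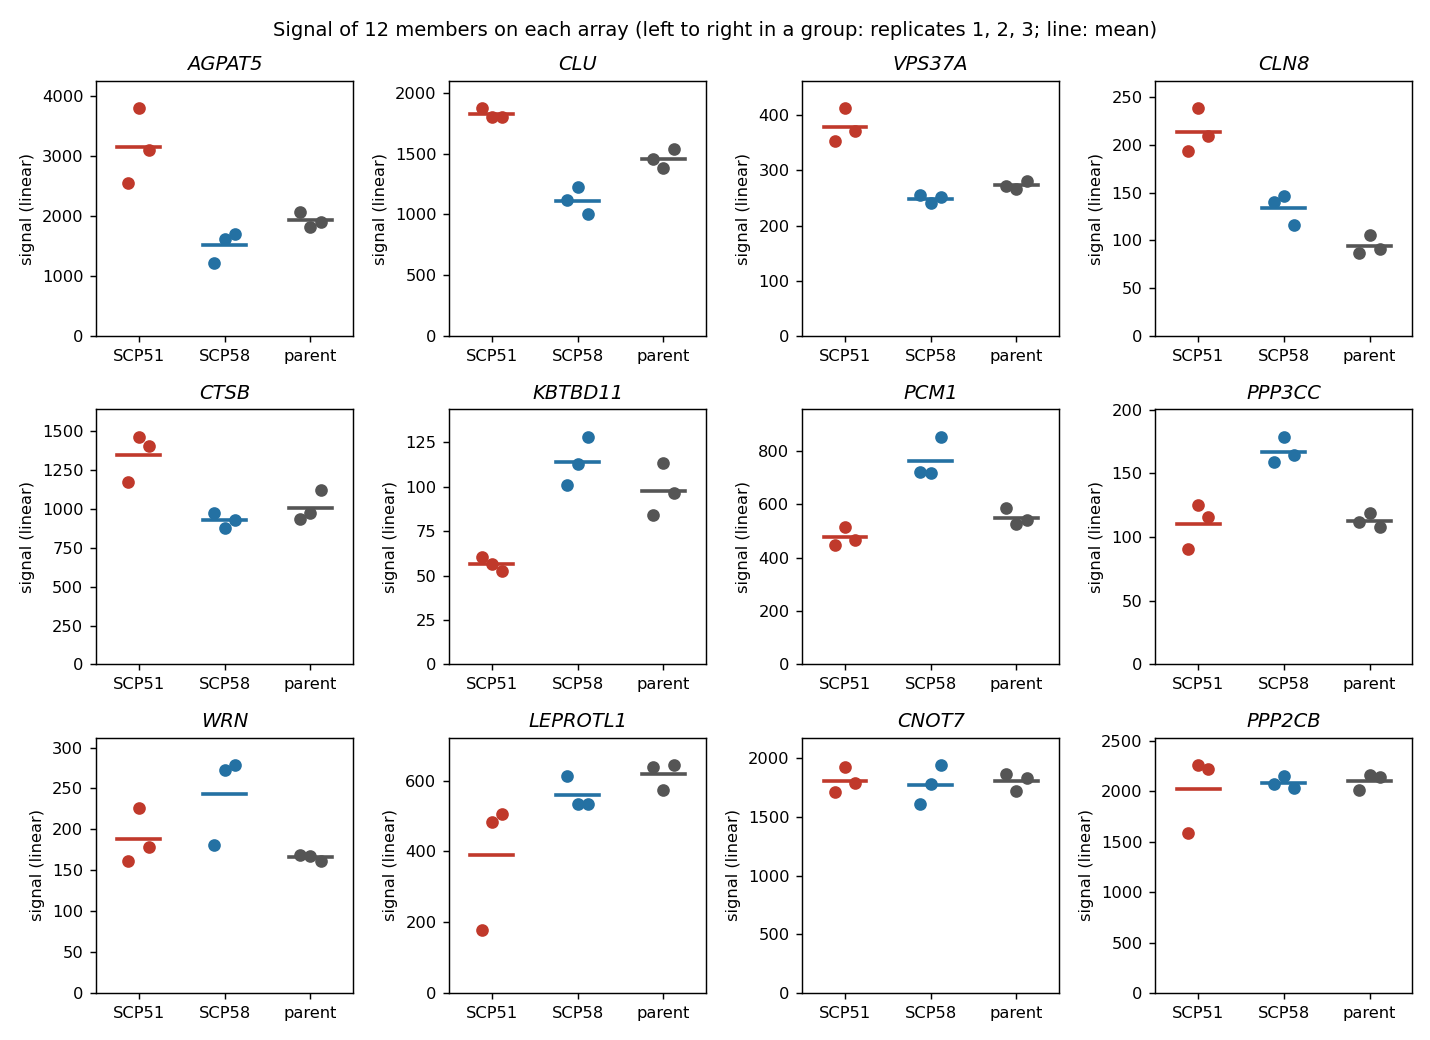
Signal on a linear scale from 0 (y axis) of 12 members on each of the 9 arrays, by group (x axis), with a line at each group mean. The SCP51 arrays lie apart from the SCP58 arrays in AGPAT5, CLU, VPS37A, CLN8, CTSB, KBTBD11, PCM1, PPP3CC and LEPROTL1, and CNOT7 and PPP2CB overlap in all 3 groups.

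Against the parent, 1 of 48 members was called higher in SCP51 (CLN8) and 1 lower (KBTBD11), or 4.17% of the members beside 2.96% of all genes. The direction shares over all genes were 1.38% higher and 1.58% lower. Without SCP51 replicate 1, 6 members were called, 5 higher and 1 lower, beside 5.39% of all genes. The arrays did not overlap in 8 members higher and 11 lower in SCP51, or 39.6%, beside 28.1% of all genes (9.5% higher and 18.6% lower). There were 10 members at an unadjusted p under 0.05, beside 19.6% of all genes, and 8 that differed by over 0.5, beside 16.4%. Both comparisons of SCP51 share its 3 arrays and are not independent of each other.

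Several members were far lower on SCP51 replicate 1 than on the other SCP51 arrays, so that their SCP51 means depend on that array. LEPROTL1, a regulator of receptor trafficking, had signals of 176, 483 and 506 in SCP51, 614, 533 and 533 in SCP58, and 638, 573 and 643 in the parent. Its difference of -0.72 ± 0.36 for SCP51 minus the parent was the lowest among the members, below the -0.68 of KBTBD11. Without SCP51 replicate 1 another probe set represented LEPROTL1 and gave 0.09 for SCP51 minus the parent and 0.60 for SCP51 minus SCP58, while the same probe set gave -0.27 and -0.13. These values moved in size or sign with that array. NEIL2, a DNA glycosylase of base excision repair, had 158, 409 and 330 in SCP51, 406, 418 and 421 in SCP58, and 474, 437 and 512 in the parent. Its difference for SCP51 minus the parent was -0.67 ± 0.30, and -0.32 without that array. MTUS1 had 586, 1740 and 1472 in SCP51, 1167, 1122 and 1463 in SCP58, and 881, 979 and 911 in the parent. It stood at 0.41 ± 0.35 for SCP51 minus the parent, and at 0.84 without that array, where it was called. In all 3 genes the low array made the SCP51 mean lower. ENTPD4, a nucleotide-cleaving enzyme of the Golgi and lysosome, had 350, 642 and 609 in SCP51, 430, 434 and 458 in SCP58, and 330, 417 and 293 in the parent. It stood at 0.69 ± 0.24, and at 0.91 without that array, where it too was called. TRIM35, a RING finger protein, had 47.4, 136 and 154 in SCP51, 87.4, 74.6 and 73.0 in SCP58, and 108, 90.8 and 100.1 in the parent. It stood at 0.46 ± 0.38 for SCP51 minus SCP58, and at 0.94 with a call without that array.

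No member was called between SCP58 and the parent, where 0.14% of all genes were (0.0662% higher and 0.0735% lower). At an unadjusted limma p under 0.05 there were 7 members, or 14.6%, beside 8.6% of all genes, and with array weights, which count variable arrays for less, 9 members were called beside 9.94% of all genes. The arrays did not overlap in 7 members higher and 8 lower in SCP58, or 31.2%, beside 17% of all genes (9.41% higher and 7.58% lower), and 4 differed by over 0.5, beside 6.85%. WRN, a helicase and exonuclease whose loss causes Werner syndrome, had signals of 180, 273 and 278 in SCP58, against 168, 168 and 162 in the parent, and 162, 226 and 179 in SCP51. Its difference for SCP58 minus the parent was 0.53 ± 0.19. DLC1 had signals of 42.4, 38.2 and 31.1 in SCP58, against 44.4, 78.7 and 42.4 in the parent, and 39.98, 53.3 and 35.4 in SCP51. These lay around the array median, and the parent mean rested on its replicate 2. Its difference for SCP58 minus the parent was -0.52 ± 0.26, and -0.92 on its other passing probe set. That probe set had mean signals of 25.8 in SCP58, 26.5 in SCP51 and 48.4 in the parent. It passed the filter only through the parent arrays, so nothing is read from its value. PPP3CC, CLN8 and PCM1, described above, gave 0.57, 0.51 and 0.47 in this comparison on the probe sets used. The other 4 probe sets of CLN8 lay between -0.21 and 0.00.

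Grouped by role, the members of the lysosome, endosome and lipid group had 3 of 9 called higher in SCP51 than in SCP58 (CLN8, AGPAT5 and VPS37A) and none lower, with 7 of 9 above 0 and a median of 0.33. Over all genes 1.48% were called higher and 2.6% lower, and since the group was formed with these values known, nothing is read from its count. For SCP51 minus the parent 8 of 9 lay above 0, with a median of 0.51 and 1 called higher (CLN8), beside 1.38% of all genes, and for SCP58 minus the parent 3 of 9 did, with a median of -0.12. Without SCP51 replicate 1 the median for SCP51 minus SCP58 was 0.55, with 3 called higher (AGPAT5, CTSB and VPS37A) and CLN8 not called. In that run 8.85% of all genes were called in either direction. That for SCP51 minus the parent was then 0.22, with AGPAT5, CTSB, VPS37A and ENTPD4 called higher and CLN8 no longer called, beside 5.39% of all genes called in either direction. CTSB, the lysosomal protease cathepsin B, had signals of 1172, 1464 and 1402 in SCP51, 976, 880 and 932 in SCP58, and 933, 971 and 1124 in the parent. SCP51 did not overlap the others. Its difference was 0.63 ± 0.12 for SCP51 minus SCP58 and 0.51 ± 0.12 for SCP51 minus the parent, neither called. Without SCP51 replicate 1 these were 0.67 and 0.56, both called. With all arrays, the 5 passing probe sets of CTSB gave 0.63 to 1.15 for SCP51 minus SCP58 and 0.30 to 0.58 for SCP51 minus the parent. ASAH1, the lysosomal acid ceramidase, stood at 0.10 ± 0.10 for SCP51 minus SCP58, and ATP6V1B2, a subunit of the proton pump that acidifies lysosomes, at -0.06 ± 0.31. CHMP7, an ESCRT-III protein of nuclear envelope sealing, stood at 0.28 ± 0.12.

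Members of genome maintenance and division lay below 0 in 5 of 6 cases for SCP51 minus SCP58, with a median of -0.36 and PCM1 as the 1 called gene, beside 2.6% of all genes called lower. Without SCP51 replicate 1 the median was -0.17, with 4 of 6 below 0. For SCP58 minus the parent 4 of 6 lay above 0, with a median of 0.16. PBK, a mitotic kinase, had signals of 1110, 1035 and 1547 in SCP51, 1843, 1562 and 2050 in SCP58, and 1601, 1489 and 1517 in the parent. SCP51 and SCP58 did not overlap, and the difference was -0.47 ± 0.16 without a call. ESCO2, which acetylates cohesin, stood at -0.01 ± 0.19, and TNKS, the poly-ADP-ribosylating enzyme tankyrase, stood on the other side at 0.25 ± 0.14.

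Of the candidate tumour suppressors named at the start, none was called in any comparison with all arrays on the probe sets used. LZTS1 stood at 0.15 ± 0.11 for SCP51 minus SCP58, and TUSC3 at -0.15 ± 0.24. Other passing probe sets of LZTS1 gave values from -0.22 to 0.01. For TUSC3 the others gave -0.26 and -1.22. The last came from a dim probe set with mean signals of 18.8 in SCP51 and 40.6 in SCP58, which gave -1.20 for SCP51 minus the parent. That probe set passed the filter only through arrays outside SCP51, so nothing is read from its values. SORBS3, a vinculin-binding adaptor, stood at -0.42 ± 0.24, and PTK2B, a calcium-responsive kinase related to FAK, at -0.04 ± 0.17. In these 4 genes the SCP51 and SCP58 arrays overlapped on the probe sets used.

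Among redox, metabolic and transport genes 4 of 7 lay below 0 for SCP51 minus SCP58 and none was called, with a median of -0.15, or -0.23 without SCP51 replicate 1. NAT1, an arylamine acetyltransferase, stood at -0.52 ± 0.16, MSRA, which repairs oxidised methionine, at -0.44 ± 0.15, and XPO7, a nuclear export factor, at -0.43 ± 0.20. All 3 had separate arrays, where 17.2% of all genes were separate and lower in SCP51, and nothing is read from that count. XPO7 was low on SCP51 replicate 1 and stood at -0.24 without it. NAT1 was called lower without SCP51 replicate 1, at -0.72. GSR, glutathione reductase, stood at 0.58 ± 0.32, with signals of 1353, 1801 and 1217 in SCP51, 586, 1287 and 1469 in SCP58, and 1287, 1530 and 1333 in the parent, so that SCP58 replicate 1 alone was low. Its other passing probe set gave -0.20, and that probe set gave 0.32 without SCP51 replicate 1, where it was the brighter. The RNA and transcription genes ERI1, CNOT7, INTS10, ELP3 and HMBOX1 lay between -0.13 and 0.26, none called. CNOT7, a deadenylase of the CCR4-NOT complex, had signals of 1710, 1923 and 1785 in SCP51, 1611, 1777 and 1939 in SCP58, and 1867, 1719 and 1830 in the parent. The phosphatase gene PPP2CB had 1588, 2258 and 2219 in SCP51, 2068, 2148 and 2031 in SCP58, and 2010, 2163 and 2138 in the parent. In both genes all 3 groups overlapped.

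The other 78 measured genes between FBXO25 and WRN had a median of 0.08 for SCP51 minus SCP58, 0.00 for SCP51 minus the parent and -0.06 for SCP58 minus the parent. In the first comparison 3 of them were called higher and 1 lower, or 5.13%. These were MYOM2 (0.78), C8orf58 (0.77) and the lysyl oxidase LOXL2 (1.75) above 0, and the Wnt receptor gene FZD3 (-1.49) below, all named after their values were seen. Past WRN the next measured gene, NRG1, a ligand of ERBB receptors, stood at 1.23 for SCP51 minus SCP58 and was called, as the only 1 of the 48 genes from there to HGSNAT, whose median was 0.07.

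Part of the long arm of the same chromosome differed more from this pattern. The 161 measured 8q genes from YTHDF3 to SQLE, a stretch located on these arrays, had a median of -0.52 for SCP51 minus SCP58. Of these, 50 were called lower and none higher, where 2.6% of all genes were called lower. Their median for SCP51 minus the parent was -0.44. The medians for SCP51 minus SCP58 were nearer 0 in the rest of 8q, at -0.21 for the 35 genes before YTHDF3 and -0.18 for the 103 beyond SQLE. On the other 22 chromosomes the medians of all genes lay between -0.04 and 0.06 for SCP51 minus SCP58. The 8p members stood at 0.03, at 0.10 without SCP51 replicate 1 and at 0.13 without SCP58 replicate 3. On the 3 SCP51 arrays the median deviation of the 8p members from their own 9-array means was -0.03, 0.15 and -0.02, on the SCP58 arrays -0.07, -0.01 and 0.09, and on the parent arrays -0.03, -0.06 and -0.04. For the 8q stretch these were -0.42, -0.24 and -0.30 on the SCP51 arrays, 0.10, 0.19 and 0.28 on the SCP58 arrays, and 0.15, 0.08 and 0.14 on the parent arrays. For 8p the SCP51 arrays overlapped the SCP58 arrays and lay just above the parent arrays, the nearest at -0.0287 in SCP51 against -0.0307 in the parent. For the 8q stretch SCP51 lay below both. The difference between the arms was not tested, since both stretches were chosen with these values known.

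**Figure D4:**
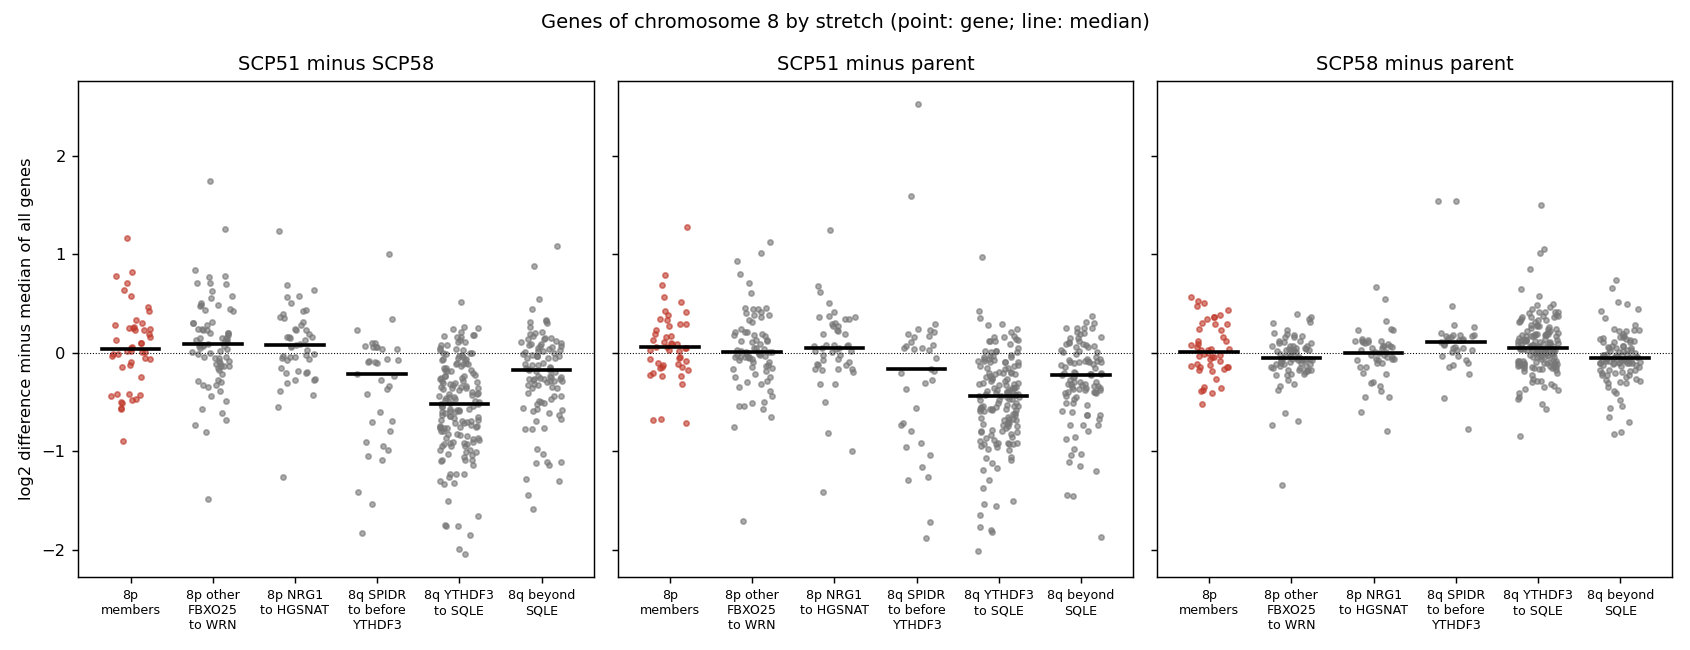
Log2 difference minus the median of all genes (y axis) for each measured gene of chromosome 8 in 6 stretches in chromosome order (x axis), in 1 panel for each comparison, with a line at each median. The 8p members (red) centre near 0 at 0.03 for SCP51 minus SCP58, while the 161 genes from YTHDF3 to SQLE centre at -0.52.

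**Figure D5:**
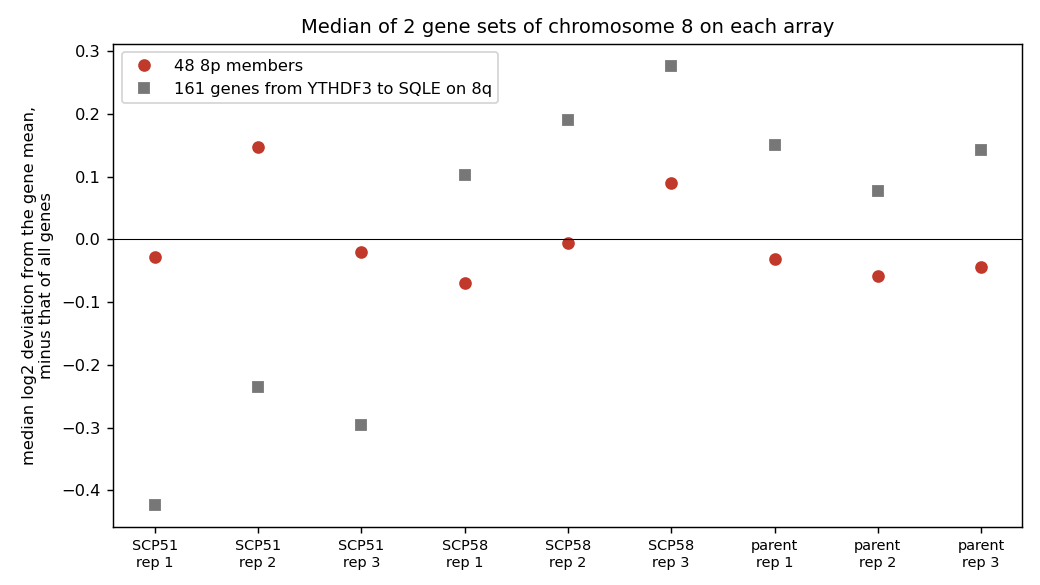
Median log2 deviation from each gene's mean over 9 arrays, minus that of all genes (y axis), on each array (x axis), for the 48 8p members (circles) and the 161 8q genes (squares). The SCP51 arrays lie between -0.42 and -0.24 for the 8q genes and between -0.03 and 0.15 for the 8p members.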

How the data were processed

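RNA of the 9 samples was labelled with biotin and hybridised to arrays of 54675 probe sets. The deposited values are intensity on a linear scale. The submitters' processing notes name GCOS 1.4 as the software, and the sources used here do not give the scaling or background method. The 514 values below 1 were raised to 1 before log2, and arrays were not rescaled. Probe sets above their array's median on at least 3 arrays were kept (29166, without 62 control probe sets), and each gene took its brightest passing probe set with 1 symbol, which gave 13598 genes. Symbols and gene order came from a RefSeq table of GRCh38.p14, and no coordinates are used.

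limma 3.58.1 in R 4.3.3 fitted 1 mean per group to all 9 arrays, with an intensity trend. A gene was called at a two-sided Benjamini-Hochberg adjusted p under 0.05 over all genes. The test is on the unshifted difference, and printed differences are minus the median of all genes with the SE of the fit. The fit was tested on simulated data. Figures used matplotlib 3.10.9. With 3 arrays per group precision is low, and signals of different probe sets are not compared.

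Members, role groups and stretches were chosen with earlier results of these data known. Members get full values when called, when among the 5 largest differences of a comparison, or when among the 3 with the highest signal. CTSB, NEIL2, MTUS1, TRIM35, PBK and GSR were added after their values were seen, as were the role group values without SCP51 replicate 1. Same-numbered replicates did not deviate together: the correlation of their deviations was -0.22 to 0.13 over 9 pairs. The summary of 1 role group is not reported here.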

Additional observations from a re-analysis of the deposited data

How the results depend on the processing

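The medians of the members for SCP51 minus the parent and SCP58 minus the parent moved by less than 0.074, the SD of that median between arrays of 1 group, in every alternative run. For SCP51 minus SCP58 it ranged from -0.00044 to 0.13 as single arrays were left out, the highest without SCP58 replicate 3. The counts of called members moved more. For SCP51 against SCP58 (7 as reported) they were 3 with the mean of probe sets (2.97% of all genes called), 3 with the replicate block (1.54%), 13 with array weights (11.2%), 2 at an adjusted p under 0.01 (0.912%), 1 when the fit held just the 6 arrays of the comparison (0.985%), and 2 to 10 with an array left out (1.02% to 8.85%). For SCP51 against the parent (2 as reported) they were 4 with arrays centred at their 75th percentile (3.17%), 4 with quantile normalization (3.05%), 5 with array weights (9.97%), 1 with the mean of probe sets (2.18%), 1 with the replicate block (1.23%), 1 with the 6 arrays of the comparison (1.11%), 1 at an adjusted p under 0.01 (0.75%), and 1 to 6 with an array left out (0.905% to 5.39%). For SCP58 against the parent array weights gave 9 in place of 0 (9.94%), and every other alternative gave 0. The replicate numbers do not pair the arrays, so the block is only a change of model. No filter, a filter at the 65th percentile, 32 added before log2, no intensity trend and every probe set by itself kept each count within 1.5 times. Among the members named by rule in each comparison, only LEPROTL1 for SCP51 minus the parent changed sign. It ranged from -0.95 to 0.0904 as single arrays were left out, and stood at 0.0904 without SCP51 replicate 1, where another probe set represented it. With the mean of probe sets the distal members' median was 0.30 in place of 0.04 for SCP51 minus the parent and 0.04 in place of -0.07 for SCP58 minus the parent, and the middle members' median was -0.04 in place of 0.07 for SCP51 minus the parent. The cause of the other changes was not tested.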
